A study of Mus musculus and Homo sapiens with 12 samples.

Results

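Alanine tRNAs are described here across 4 groups of libraries from a genome-wide tRNA-charging assay. They were taken as every line of the deposited tables that names a tRNA gene for alanine, with the anticodons AGC, CGC and TGC. There were 23 such genes among the 224 tRNA genes listed for mouse and 27 among the 260 listed for human, and their reads were summed by gene, by anticodon (an isoacceptor) and over alanine. MEF cells, a line of mouse embryonic fibroblasts, were left untreated (NT) or given 100 nM halofuginone (HF) for 6 h by the labels, both in medium with dialyzed serum. The study's text gives a shorter time for HF. NTERT cells, an immortalized line of human keratinocytes, were left untreated or exposed to 400 J/m2 of UV-B and recovered for 3 h. Each of the 4 groups held 3 libraries, 12 in all, and the study's text calls them biological replicates. The labels do not say whether they came from separate cultures, and p-values measure the spread between these libraries. In MEF cells the main fits took that spread wholly or mostly in common from all isoacceptors, amino acids or genes tested. Values of the same library can move together, so these p-values can be smaller than 3 libraries against 3 warrant.

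Alanyl-tRNA synthetase joins alanine to the 3' end of its tRNAs. It is known for recognizing a G:U wobble pair in the acceptor stem and not the anticodon, so tRNAs with different alanine anticodons are substrates of the same enzyme through the same feature. The anticodon AGC is modified to inosine at its first position and reads several alanine codons, while CGC and TGC read codons that end in purines. HF is an inhibitor of prolyl-tRNA synthetase, which acts on tRNA Pro and not on tRNA Ala.

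In the assay, periodate oxidizes the terminal A of tRNAs that carry no amino acid, and a later step at basic pH removes it. Reads ending in CCA thus stand for charged tRNA and reads ending in CC for uncharged tRNA. Charging is given as the percentage of CCA reads among reads with either end. The columns of the tables carry no names, and the charged column was identified in MEF cells by tRNA Pro, whose combined charging was 49.1% ± 6.71 (SD, n = 3) without and 18.0% ± 11.02 (SD, n = 3) with HF under the order used here. That order was carried over to NTERT cells, where no inhibitor of a synthetase offered such a check. The study reports lower charging of tRNA-Ser-TGA with UV-B in these cells. Under this order combined serine averaged 46.7% in NT and 40.6% in UV-B libraries, and the groups overlapped.

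The libraries differed in depth. They held from 617693 to 6286863 reads on tRNA genes in MEF cells and from 253693 to 1992671 in NTERT cells. Reads with either end made up 87.0% to 96.6% of the tRNA reads in MEF libraries and 47.2% to 62.8% in NTERT libraries. The share of all reads that fell on tRNA genes was 3.43% to 9.52% in MEF NT and 19.1% to 27.8% in HF libraries, so this property of the libraries moved with the group, and its part in the results below was not tested. In one HF library (HF 1) and one UV-B library (UV-B 1), alanine tRNAs took a larger share of the tRNA reads than in the others of their cell type, and the isoacceptors' changes in charging and in share of reads are given with and without them.

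In MEF cells, charging of tRNA Ala was higher on average with HF for all 3 isoacceptors, and only tRNA-Ala-AGC passed the threshold, an adjusted p under 0.05. Charging of tRNA-Ala-AGC was 64.0%, 47.3% and 74.4% in NT libraries 1 to 3 and 94.9%, 85.9% and 71.8% in HF libraries 1 to 3. HF 3 lay below NT 3, so the groups overlapped. The mean was 61.9% ± 13.7 (SD, n = 3) without and 84.2% ± 11.7 (SD, n = 3) with HF. On the log2 scale of the ratio of charged to uncharged reads, the change was 1.98 with a standard error of 0.73, and limma with Benjamini-Hochberg adjustment over 48 isoacceptors gave an adjusted p of 0.0367. Of those 48 isoacceptors, 18.8% were called in either direction and 12.5% were called with higher charging. This call was lost without any one of NT 1, NT 2, HF 1 or HF 2, with log2 changes of 2.03, 1.54, 1.24 and 2.04.

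For tRNA-Ala-CGC, charging was 80.1%, 60.4% and 84.04% in NT libraries and 93.1%, 90.2% and 84.16% in HF libraries. The groups did not overlap, though NT 3 and HF 3 lay next to each other, and 22.9% of all isoacceptors had HF libraries above every NT library. The log2 change of 1.45 did not pass the threshold (limma adjusted p = 0.125). Means were 74.8% ± 12.7 (SD, n = 3) without and 89.2% ± 4.57 (SD, n = 3) with HF. Without NT 3 the log2 change was 1.81, and without HF 3 it was also 1.81, and both passed the threshold (limma adjusted p = 0.0414 and 0.0488). Without NT 2 it fell to 0.92 and without HF 1 to 1.13 (limma adjusted p = 0.418 and 0.366).

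Charging of tRNA-Ala-TGC was 71.7%, 54.5% and 80.0% in NT libraries and 96.4%, 86.6% and 72.9% in HF libraries. As for AGC, HF 3 lay below NT 3. The log2 change was 1.75, and it did not pass the threshold (limma adjusted p = 0.0776). Without NT 3 or HF 3 the values were 2.15 and 2.51 and passed it (limma adjusted p = 0.0229 and 0.0084). Without HF 1 the log2 change was 0.86 (limma adjusted p = 0.370).

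**Figure D1:**
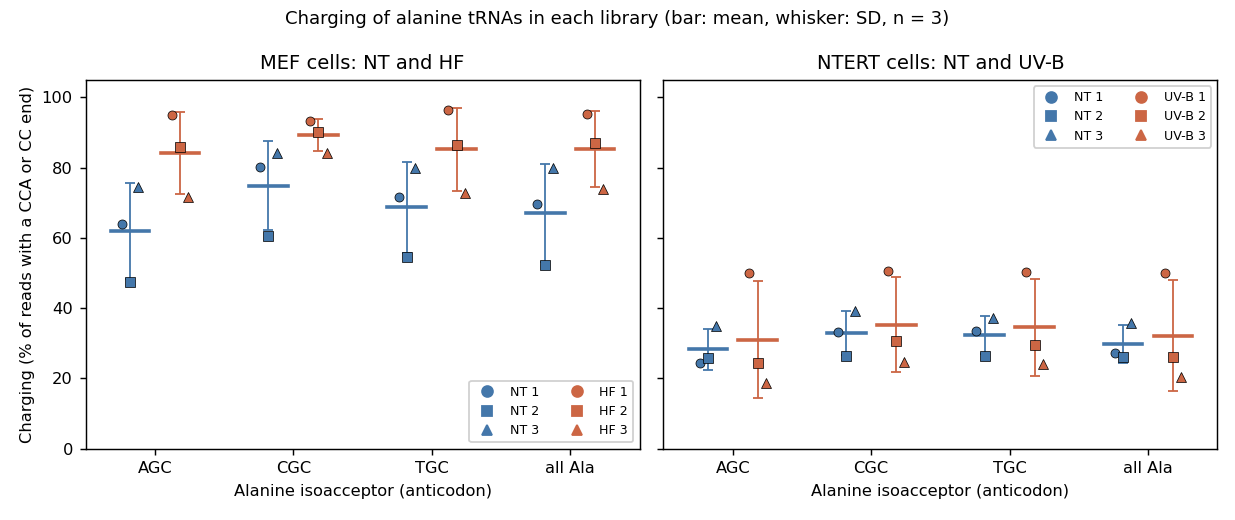
Charging of each alanine isoacceptor and of all alanine reads, as a percentage of reads with a CCA or CC end, in MEF (left) and NTERT (right) libraries. Points are libraries, bars are means and whiskers are the SD of 3 libraries. In MEF cells HF 1 and HF 2 lie above every NT library. HF 3 lies beside NT 3 for CGC and below it for AGC, TGC and all alanine. In NTERT cells UV-B 1 stands highest while the other 5 libraries lie between 18.8% and 39.2%.

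With the isoacceptors combined, 69.5%, 52.2% and 79.8% of alanine reads were charged in NT libraries and 95.2%, 87.1% and 73.8% in HF libraries. The log2 change was 1.75 with a standard error of 0.72, and it did not pass the threshold among 21 amino acids (limma adjusted p = 0.0703). The same fit called 9.52% of the amino acids in either direction. HF 3 was again the lowest HF library and lay below NT 3. Without NT 3 or HF 3 the log2 changes were 2.19 and 2.43 and passed the threshold (limma adjusted p = 0.0152 and 0.0103). Without HF 1 the log2 change was 1.03 (limma adjusted p = 0.313).

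Most isoacceptors had higher charging in HF libraries, 93.8% of the 48 with a positive log2 change, so alanine was also set against its own library. The median isoacceptor of a library was charged to 71.9%, 55.7% and 80.7% in NT and 90.1%, 86.9% and 78.9% in HF libraries. Combined alanine was at -2.40, -3.45 and -0.946 percentage points from that median in NT 1 to 3. It lay 5.07 and 0.176 points above it in HF 1 and HF 2 and was at -5.03 points in HF 3. With the library median subtracted, the log2 changes were 0.62 for AGC, 0.09 for CGC and 0.39 for TGC, and none passed the threshold (limma adjusted p = 0.523, 0.840 and 0.791), against 6.25% of isoacceptors called in that fit.

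By rank among the 48 isoacceptors, where 1 is the highest charging, tRNA-Ala-AGC stood at 33, 32 and 32 in NT libraries and at 6, 28 and 32 in HF libraries. HF 1 was thus the library in which it stood high, and in HF 3 its rank was that of NT 3. The ranks of tRNA-Ala-TGC were 25, 26 and 26 in NT and 3, 26 and 29 in HF libraries. Those of tRNA-Ala-CGC ran from 10 to 17 over all 6 libraries, with no HF library outside the range of NT.

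**Figure D2:**
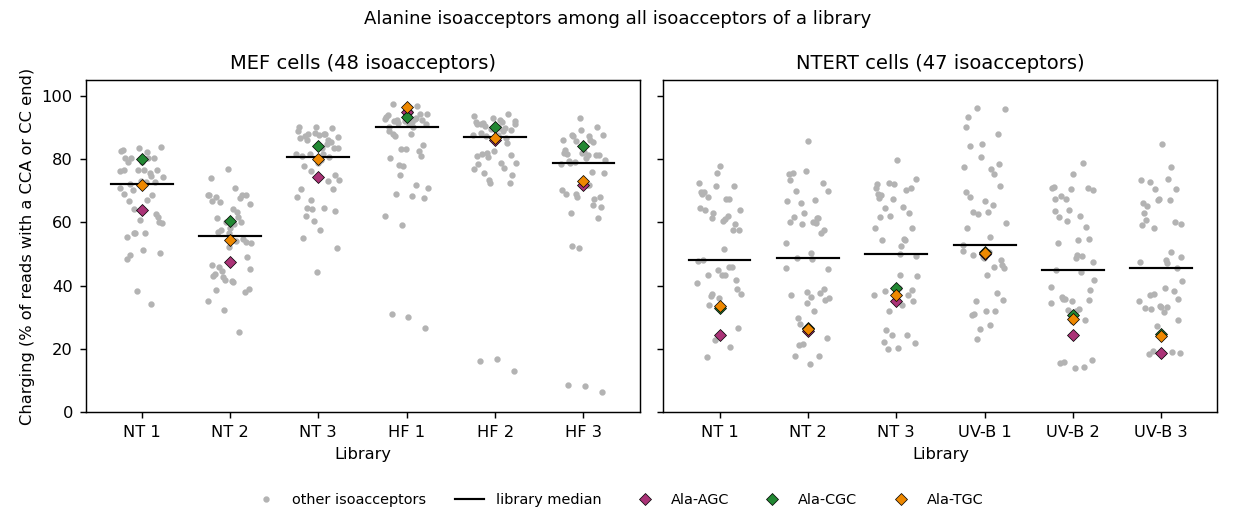
Charging of every tested isoacceptor, those whose reads with an end averaged 50 or more, as a percentage of reads with a CCA or CC end, for each library of MEF (48 isoacceptors) and NTERT cells (47). Grey points are isoacceptors of other amino acids, black lines are library medians and diamonds are the alanine isoacceptors. The alanine isoacceptors lie around the median in MEF libraries and under it in all NTERT libraries, with UV-B 1 nearest to the median.

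The order of the isoacceptors was compared within libraries, which removes shifts that a whole library shares. In MEF cells tRNA-Ala-TGC was charged more than tRNA-Ala-AGC in 6 of 6 libraries. The difference was 7.66, 7.21 and 5.56 percentage points in NT libraries and 1.48, 0.674 and 1.12 points in HF libraries. In percentage points, the gap was smaller in every HF library. On the log2 ratio scale, which does not compress near full charging, it was 0.51, 0.42 and 0.46 in NT and 0.52, 0.08 and 0.08 in HF libraries, and the groups overlapped through HF 1.

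Charging of tRNA-Ala-CGC exceeded that of tRNA-Ala-AGC in 5 of 6 MEF libraries, by 16.0, 13.1 and 9.60 percentage points in NT and by 4.28 and 12.4 points in HF 2 and HF 3. In HF 1 the difference was -1.77 points. The log2 ratio differences of NT and HF libraries were not told apart by a two-sided exact permutation test over libraries (p = 0.4 for TGC minus AGC, p = 0.4 for CGC minus AGC and p = 0.9 for TGC minus CGC, adjusted p = 0.6, 0.6 and 0.9), and the smallest p that 3 libraries against 3 allow is 0.1. Valine and threonine, whose tRNAs have a like set of anticodons, did not share the order in every library. The isoacceptor with T at the first anticodon position was above that with A in 5 of 6 MEF libraries for valine and in 3 of 6 for threonine. The isoacceptor with C at that position was above that with A in 1 of 6 MEF libraries for valine and in 5 of 6 for threonine, the latter the same count as for alanine.

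Among isoacceptors of other amino acids, the charging of tRNA-Ala-AGC over the 6 MEF libraries was nearest to that of tRNA-Thr-TGT, with a mean absolute difference of 3.72 percentage points, then tRNA-Val-AAC at 4.21 and tRNA-Val-CAC at 4.49. For tRNA-Ala-CGC the nearest were tRNA-Ile-AAT at 1.86, tRNA-Gly-GCC at 2.19 and tRNA-Gly-TCC at 2.32 points. For tRNA-Ala-TGC they were the initiator tRNA Met at 2.55, tRNA-Phe-GAA at 3.01 and tRNA-Thr-CGT at 3.05 points, each out of 45 candidates.

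Single genes were followed next. Several tRNA genes are near-identical and share reads, so the value of a gene depends on how the alignment split them. RefSeq lists 33 mouse loci for alanine tRNAs on assembly GRCm38.p6, 12 of them on chromosome 13, 12 on chromosome X and the rest on other chromosomes, under names that do not pair with those of the tables, so no single gene is placed here. In MEF cells 14 of the 23 alanine genes had a mean of at least 50 reads with an end, 8 with AGC, 2 with CGC and 4 with TGC, and these held 99.9% of the alanine reads with an end. The fitted log2 changes of these 14 genes ran from 1.25 to 2.79 with a median of 1.69, beside a median of 1.30 over 139 tRNA genes of all amino acids, and all 14 were positive, as were 96.4% of the 139. Of the 14, 5 were called, all with higher charging, where 14.4% of the 139 were called and 11.5% were called with higher charging. In 5 genes every HF library was above every NT library, against 28.1% of all genes.

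The called genes with AGC were Ala-AGC-1-1, Ala-AGC-2-1 and Ala-AGC-4-1. The gene with the most reads, Ala-AGC-2-1, was charged to 53.9%, 37.8% and 64.6% in NT and 96.3%, 84.6% and 68.5% in HF libraries. The groups did not overlap, and the log2 change was 2.63 (limma adjusted p = 0.0207). For Ala-AGC-4-1 the values were 66.5%, 41.9% and 69.5% in NT and 95.9%, 82.1% and 72.0% in HF libraries (log2 change 2.14, limma adjusted p = 0.0404). Ala-AGC-1-1 was charged to 44.3%, 34.6% and 54.7% in NT and 94.0%, 74.2% and 55.4% in HF libraries, and NT 3 and HF 3 lay side by side (log2 change 2.26, limma adjusted p = 0.0311).

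The other leading AGC genes were charged more than these in NT libraries and were not called. Ala-AGC-3-1 stood at 67.9%, 52.2% and 78.2% in NT and 91.9%, 87.2% and 75.9% in HF libraries, with a log2 change of 1.63 (limma adjusted p = 0.108). Ala-AGC-5-1 stood at 68.3%, 49.4% and 76.4% in NT and 95.6%, 87.6% and 74.0% in HF libraries, with a log2 change of 2.00 (limma adjusted p = 0.0539). In both genes HF 3 was below NT 3.

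With TGC, Ala-TGC-1-1 and Ala-TGC-7-1 were called. Charging of Ala-TGC-1-1 was 59.5%, 39.2% and 67.8% in NT and 97.4%, 83.5% and 66.2% in HF libraries, so HF 3 was below NT 3 (log2 change 2.51, limma adjusted p = 0.0207). Ala-TGC-7-1 was charged to 44.8%, 25.0% and 62.7% in NT and 90.1%, 83.9% and 79.3% in HF libraries, with no overlap (log2 change 2.79, limma adjusted p = 0.0207). That gene rests on only 16 to 145 reads with an end per library.

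The main TGC genes were not called. Ala-TGC-2-1 had log2 change 1.75 and Ala-TGC-4-1 had 1.63 (limma adjusted p = 0.0883 and 0.108). The CGC reads came almost all from Ala-CGC-2-1, charged to 81.2%, 60.8% and 84.1% in NT and 92.4%, 91.1% and 86.4% in HF libraries without overlap (log2 change 1.49, limma adjusted p = 0.131). Ala-CGC-1-1 had log2 change 1.33 (limma adjusted p = 0.166). The count of 5 called genes was 13 without NT 3, 10 without HF 3 and 0 without any one of NT 1, NT 2, HF 1 or HF 2, and it was 1 with the library median subtracted, where 3.6% of the 139 genes were called.

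**Figure D3:**
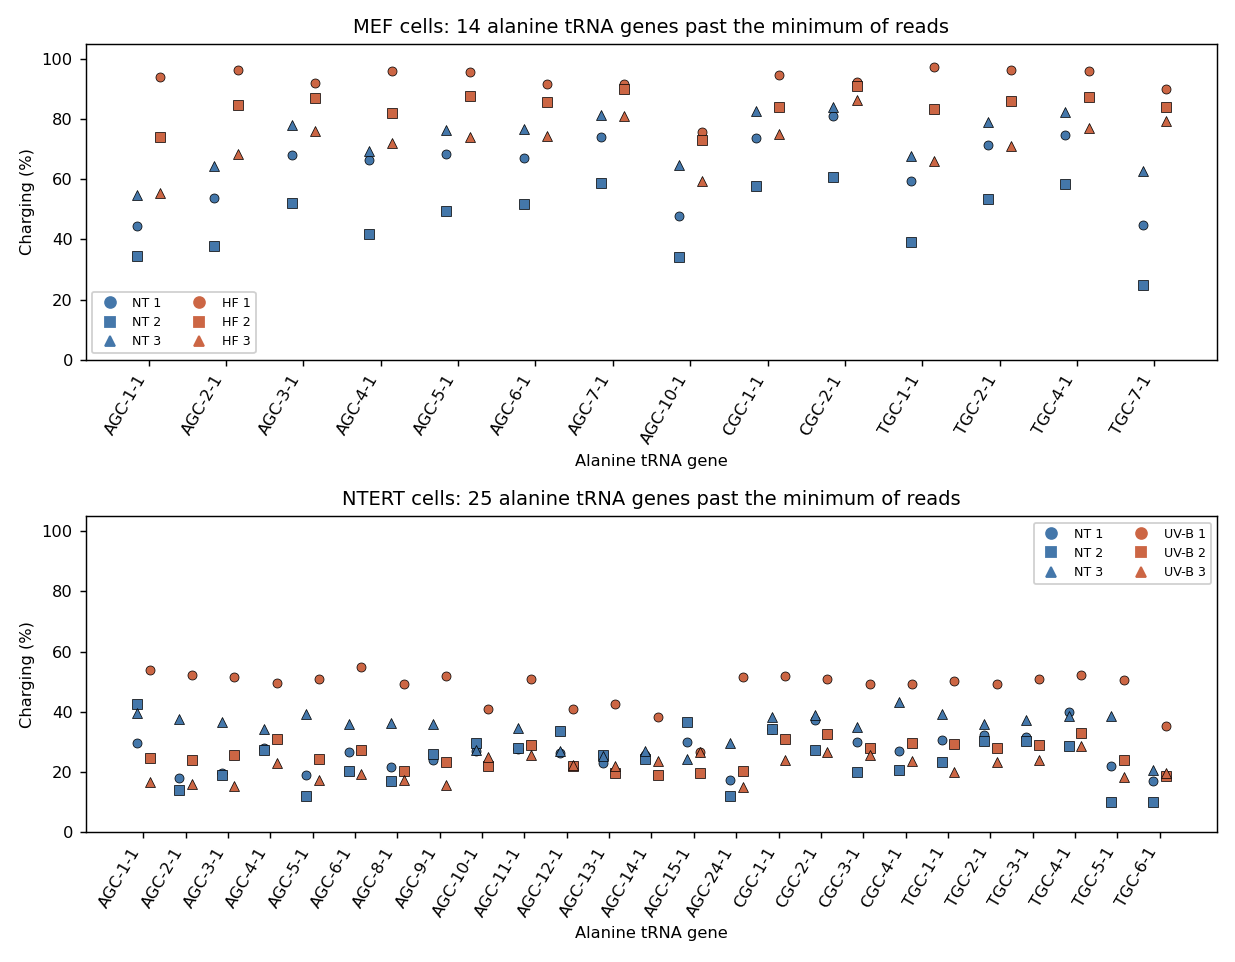
Charging of single alanine tRNA genes, as a percentage of reads with a CCA or CC end, in MEF (top, 14 genes) and NTERT libraries (bottom, 25 genes). Symbols stand for library numbers and colours for NT and treated libraries. In MEF cells NT 2 is the lowest library for every gene shown, and in NTERT cells UV-B 1 is the highest for 24 of the 25 genes.

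The makeup of the alanine reads also differed between libraries. In MEF cells tRNA-Ala-AGC took 1.47%, 1.35% and 0.936% of the tRNA reads in NT and 4.04%, 1.34% and 2.12% in HF libraries. The value of HF 2 lay within the range of NT, and HF 1 was the highest. With scaling by TMM, a trimmed mean of ratios between libraries, the log2 change was 1.03 (limma adjusted p = 0.0265). For tRNA-Ala-TGC the shares were 0.708%, 0.531% and 0.488% in NT and 2.18%, 0.614% and 0.930% in HF libraries, with HF 2 again within the range of NT (log2 change 1.07, limma adjusted p = 0.0236). The same fit called 14.6% of 48 isoacceptors. Both calls were lost when library totals, median-of-ratios scaling or reads with either end were used and without any one library other than HF 2, and without HF 1 the log2 changes were 0.38 and 0.34 (limma adjusted p = 0.331 and 0.347).

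Shares of tRNA-Ala-CGC were 0.617%, 0.656% and 1.14% in NT and 0.688%, 0.636% and 0.516% in HF libraries. NT 3 was the highest here, and the log2 change of -0.19 did not pass the threshold (limma adjusted p = 0.797). Without NT 3 it was 0.17, and without HF 1 it was -0.50 (limma adjusted p = 0.931 and 0.456). Within alanine, CGC made up 22.1%, 25.8% and 44.5% of the reads in NT and 9.95%, 24.6% and 14.5% in HF libraries. HF 2 lay above NT 1, so the groups overlapped, and a two-sided exact permutation test gave p = 0.2 (adjusted p = 0.3). AGC made up 36.5% to 53.3% in NT and 51.7% to 59.4% in HF libraries, and TGC made up 19.0% to 25.4% and 23.7% to 31.6% (exact permutation p = 0.3 and 0.2).

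**Figure D4:**
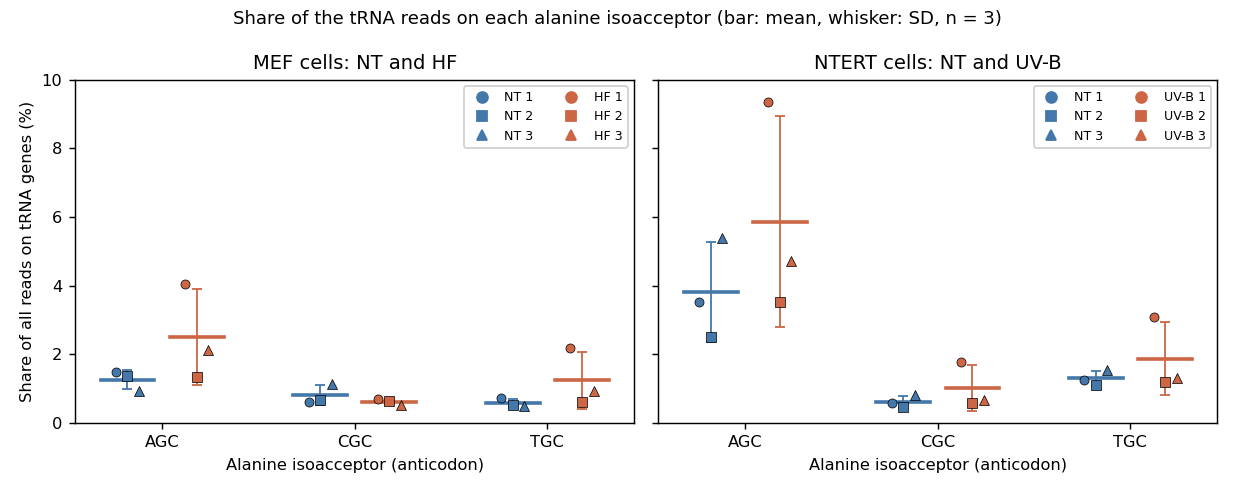
Share of all reads on tRNA genes that fell on each alanine isoacceptor, in percent, in MEF (left) and NTERT libraries (right). Points are libraries, bars are means and whiskers are the SD of 3 libraries. HF 1 is the highest library for AGC and TGC in MEF cells, and UV-B 1 is the highest for all 3 isoacceptors in NTERT cells.

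Within tRNA-Ala-AGC, Ala-AGC-2-1 took 26.0%, 22.1% and 17.6% of the reads in NT and 46.0%, 27.3% and 43.7% in HF libraries. Every HF library was above every NT library, though NT 1 and HF 2 differed little. Ala-AGC-5-1 took 13.8%, 16.8% and 15.2% in NT and 12.2%, 11.3% and 10.46% in HF libraries, all lower with HF. For each of these genes a two-sided exact permutation test gave p = 0.1, the smallest p that the design allows, and an adjusted p of 0.3 over 9 genes. Ala-AGC-2-1, with the higher shares in HF libraries, was charged less than Ala-AGC-3-1 and Ala-AGC-5-1 in all 3 NT libraries. It was also charged less than both in HF 2 and HF 3, but more than both in HF 1. These shares were tested after their values were seen.

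For CGC, Ala-CGC-2-1 took 85.1%, 89.1% and 94.3% of the reads in NT and 67.8%, 87.3% and 80.4% in HF libraries, and the groups overlapped (exact permutation p = 0.2, adjusted p = 0.3). The leading TGC gene, Ala-TGC-2-1, took between 47.9% and 51.7% in all 6 libraries.

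**Figure D5:**
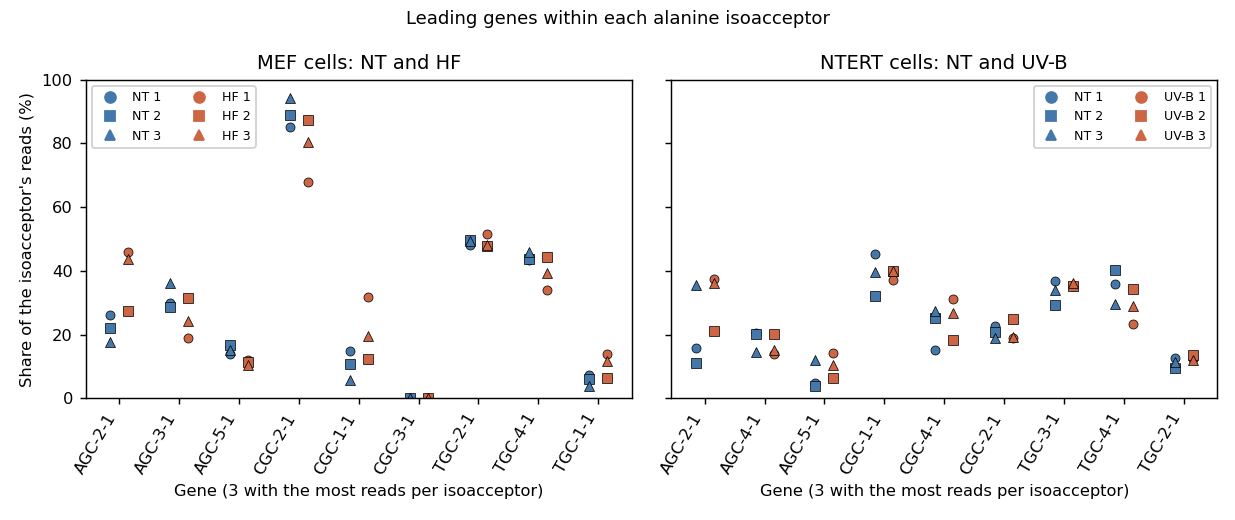
Share of an isoacceptor's reads that fell on its 3 genes with the most reads, in percent, in MEF (left) and NTERT libraries (right). Symbols stand for library numbers and colours for NT and treated libraries. Ala-AGC-2-1 is higher in every HF library than in any NT library, and in NTERT cells it spans 11.005% in NT 2 to 37.4% in UV-B 1.

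The charging percentage rests on reads that keep either 3' end, and alanine tRNAs were among those that kept it most often. In MEF cells 98.5%, 97.7% and 98.6% of tRNA-Ala-AGC reads had either end in NT and 99.8%, 99.4% and 99.6% in HF libraries. For CGC the values were 99.3%, 98.4% and 99.561% in NT and 99.7%, 99.7% and 99.618% in HF libraries, and for TGC 98.4%, 95.1% and 98.8% in NT and 99.5%, 99.1% and 99.1% in HF libraries. No group overlapped for any of the 3, against 72.9% of isoacceptors that were higher in every HF library. The log2 changes of the odds were 2.19, 1.28 and 1.53 (limma adjusted p = 0.000136, 0.0131 and 0.00471), where 79.2% of isoacceptors were called. The call of CGC was lost without NT 2 or HF 2, at 0.78 and 1.15, and that of TGC without NT 2, at 0.90. With the library median subtracted the changes were 1.12, 0.21 and 0.46, and none passed the threshold.

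In NTERT cells, charging of the alanine isoacceptors lay under the median isoacceptor of each library and did not pass the threshold for a change with UV-B. Charging of tRNA-Ala-AGC was 24.3%, 25.7% and 35.1% in NT libraries 1 to 3 and 49.98%, 24.4% and 18.8% in UV-B libraries 1 to 3. UV-B 1 was above and UV-B 3 below every NT library. The mean was 28.4% ± 5.82 (SD, n = 3) without and 31.1% ± 16.6 (SD, n = 3) with UV-B, and the log2 change of 0.11 had a standard error of 0.55 (limma adjusted p = 0.986). The fit called 0% of 47 isoacceptors, none of which had an unadjusted p under 0.05 either.

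For tRNA-Ala-CGC charging was 33.1%, 26.5% and 39.2% in NT and 50.5%, 30.7% and 24.6% in UV-B libraries. For tRNA-Ala-TGC it was 33.6%, 26.4% and 37.2% in NT and 50.2%, 29.4% and 24.1% in UV-B libraries. Both showed the order of libraries seen for AGC among UV-B samples, with UV-B 1 highest and UV-B 3 lowest. The log2 changes were 0.12 and 0.10, with standard errors of 0.47 and 0.47 (limma adjusted p = 0.986 for both).

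Combined alanine was charged to 27.3%, 26.0% and 35.9% in NT and 50.1%, 26.2% and 20.4% in UV-B libraries, with a log2 change of 0.10 and a standard error of 0.52 (limma adjusted p = 0.957). Without UV-B 1 the sign turned for every alanine value, to -0.52 for AGC, -0.36 for CGC, -0.39 for TGC and -0.48 for combined alanine, and none passed the threshold (limma adjusted p = 0.373, 0.464, 0.464 and 0.335). In UV-B 1 alanine tRNAs took 14.2% of the tRNA reads, beside 4.07% to 7.74% in the other 5 NTERT libraries, and the part of this in the charging value was not tested.

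Against the library median, combined alanine was at -20.7, -22.8 and -14.0 percentage points in NT and at -2.72, -18.8 and -25.1 points in UV-B libraries. All 6 libraries were under the median, and UV-B 1 was nearest to it. The median isoacceptor was charged to between 45.0% and 52.8% in the 6 libraries, a span of fewer points than alanine covered. Among 47 isoacceptors, tRNA-Ala-AGC ranked 44, 41 and 38 in NT and 29, 42 and 44 in UV-B libraries. CGC and TGC ranked from 27 to 41. Low charging was not particular to alanine. Combined tRNA Pro averaged 22.8% in NT and 22.6% in UV-B libraries, beside 29.7% and 32.2% for combined alanine. The tRNA His average in NT libraries was 29.9%.

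Within NTERT libraries tRNA-Ala-TGC and tRNA-Ala-CGC were each charged more than tRNA-Ala-AGC in 6 of 6 libraries. TGC was above AGC by 9.24, 0.654 and 2.12 percentage points in NT and by 0.191, 5.03 and 5.23 points in UV-B libraries. The gap was widest in NT 1 and almost closed in UV-B 1. The log2 ratio differences of NT and UV-B libraries were not told apart by a two-sided exact permutation test (p = 1 for TGC minus AGC, p = 1 for CGC minus AGC and p = 0.8 for TGC minus CGC). CGC and TGC differed by at most 2.08 points in any NTERT library. In the families of valine and threonine the isoacceptor with T at the first anticodon position was charged less than that with A in 6 of 6 NTERT libraries, the other way round from alanine. The isoacceptor with C was above that with A in 5 of 6 NTERT libraries for valine, the same way as in alanine, and in 1 of 6 for threonine.

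The isoacceptor of another amino acid nearest in charging was tRNA-Thr-TGT for CGC, at 4.40 percentage points, and for TGC, at 3.81 points, followed for both by tRNA-Ile-AAT and tRNA-Gln-TTG. For AGC it was tRNA-Pro-CGG at 6.76 points, then tRNA-Thr-TGT at 6.90 and tRNA-Leu-AAG at 8.45, out of 44 candidates.

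Of the 27 human genes, 25 had a mean of at least 50 reads with an end. Their fitted log2 changes ran from -0.48 to 0.78 with a median of 0.18, beside a median of 0.08 over 168 genes, and 19 were positive and 6 negative, where 57.7% of the 168 were positive. None was called by limma and none had an unadjusted p under 0.05, where 0% and 1.79% of the 168 genes did. No alanine gene had groups without overlap, beside 4.76% of the 168 genes with every UV-B library higher and 3.57% with every one lower.

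The human AGC genes differed in how far they spread over libraries. The gene with the most reads, Ala-AGC-2-1, was charged to 18.0%, 14.1% and 37.5% in NT and 52.0%, 23.9% and 16.0% in UV-B libraries. Ala-AGC-5-1 behaved much alike, with 19.0%, 11.8% and 39.3% in NT and 51.0%, 24.3% and 17.4% in UV-B libraries. Ala-AGC-4-1 had a narrower span, with 27.8%, 27.1% and 34.2% in NT and 49.5%, 30.8% and 22.8% in UV-B libraries.

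The span from the lowest to the highest of the 6 libraries was 16.9 to 39.4 percentage points over the 15 AGC genes, 24.3 to 29.4 over the 4 CGC genes and 23.7 to 40.4 over 6 TGC genes. The CGC genes that lead by reads, Ala-CGC-1-1, Ala-CGC-4-1 and Ala-CGC-2-1, had log2 changes of -0.04, 0.25 and 0.12. The leading TGC genes, Ala-TGC-3-1, Ala-TGC-4-1 and Ala-TGC-2-1, had log2 changes of 0.05, 0.12 and -0.01. Each of these 6 genes had a limma adjusted p of 0.999.

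By share of the tRNA reads, tRNA-Ala-AGC was the most abundant alanine isoacceptor in all NTERT libraries, at 3.52%, 2.51% and 5.40% in NT and 9.36%, 3.53% and 4.71% in UV-B libraries. For CGC the shares were 0.580%, 0.466% and 0.805% in NT and 1.78%, 0.585% and 0.658% in UV-B libraries. For TGC they were 1.24%, 1.09% and 1.54% in NT and 3.10%, 1.18% and 1.32% in UV-B libraries. UV-B 1 was the highest for each, and UV-B 2 and UV-B 3 lay within the range of NT. The log2 changes of 0.52, 0.51 and 0.36 did not pass the threshold (limma adjusted p = 0.546, 0.546 and 0.653), and the fit called 0% of 48 isoacceptors, with 8.33% at an unadjusted p under 0.05. Without UV-B 1 the log2 changes were 0.19, 0.06 and -0.02 (limma adjusted p = 0.984 for each).

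Within alanine the makeup of the reads spanned a narrower range in NTERT than in MEF libraries. AGC made up 61.7% to 70.5% of the alanine reads, CGC 9.85% to 12.5% and TGC 19.7% to 26.9% over the 6 libraries, and two-sided exact permutation tests gave p = 0.5, 0.8 and 0.4. The share of AGC reads that fell on Ala-AGC-2-1 was 15.8%, 11.005% and 35.6% in NT and 37.4%, 21.3% and 36.2% in UV-B libraries, and the groups overlapped through NT 3 (exact permutation p = 0.2, adjusted p = 0.675).

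Alanine isoacceptors kept either 3' end more often than most in NTERT cells. For AGC 94.6%, 88.8% and 96.8% of the reads had either end in NT and 97.6%, 95.1% and 97.3% in UV-B libraries, the highest of 48 isoacceptors in all 6 libraries. For CGC the range was 83.3% to 95.7% and for TGC 83.1% to 94.4%. The median isoacceptor was at 42.8% to 54.3%. Alanine charging in NTERT cells thus rests on a larger part of the reads than that of the median isoacceptor. The part of this in its low rank was not tested. None of the 3 changed past the threshold with UV-B (limma adjusted p = 0.675, 0.724 and 0.675), and the fit called 0% of isoacceptors, with 6.25% at an unadjusted p under 0.05.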

How the data were processed

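The deposited tables hold, per the labels and the study's methods, whole-number read counts per tRNA gene that the authors made by trimming and by alignment with bowtie2 to tRNA references, without normalization. The submitters' processing notes name Trim Galore, Bowtie2, GRCm38 (mm10) and GRCh38 (hg38), with no versions. Each of the 12 libraries has a table of its own, with 3 unnamed columns of counts taken as all reads, charged reads (CCA end) and uncharged reads (CC end). No values of other kinds were used. The human tables spell Glu and Leu as GlT and LeT, which were read as Glu and Leu. Yeast lines and unaligned reads entered only the total behind the share of all reads that fell on tRNA genes. The replicate numbers of the labels, not the different ones in the names of the NTERT tables, were used.

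Members and lists were chosen with earlier results of these data known. Reads were summed by gene, isoacceptor and amino acid. Charging was tested on log2((charged + 0.5)/(uncharged + 0.5)) with limma 3.58.1 in R 4.3.3, within a cell type, over all features with a mean of at least 50 reads with an end, with two-sided p-values adjusted by Benjamini-Hochberg over the whole table and a threshold of 0.05. The percentage of reads with either end was tested on the log2 odds in the same way, and the share of tRNA reads on log2 counts with a pseudocount of 0.5, scaled by TMM with trims of 30% and 5%. In MEF cells limma shared a common spread over features for charging and for the share of tRNA reads, so the standard errors of the 3 isoacceptors were equal there. For reads with either end they were 0.4701, 0.4705 and 0.4742 for AGC, CGC and TGC. For charging with the library median subtracted they were 0.407, 0.248 and 0.492. Values within alanine were tested with exact permutation tests over libraries. The fits were also run on simulated data, with noise drawn separately for each isoacceptor and library. The simulation held no shift common to a library, so it does not show how the fits behave under such shifts.

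The genes named are the 3 with the most reads with an end for each isoacceptor and cell type and each gene with an adjusted p under 0.05. Likeness is the mean absolute difference in percentage of charging over 6 libraries, and the 3 nearest isoacceptors are named. The number of reads with an end per library ran from 3117 to 132473 for an alanine isoacceptor in MEF and from 985 to 104099 in NTERT cells. The 95% Wilson interval of a library's charging was at most 3.49 percentage points wide in MEF and 5.50 in NTERT cells, and covers counting error only. Same-numbered NT and treated libraries were not treated as pairs, as the labels name no pairing. Across isoacceptors, the correlations of their deviations were -0.101, -0.11 and -0.0333 in MEF and -0.346, 0.0245 and -0.487 in NTERT cells. These correlations cannot register a shift common to a whole library. Plots were drawn with Python 3.11.15 and matplotlib 3.10.9. Sequences and positions of the tRNA genes are not given here. Alternatives were other pseudocounts, minimums, scalings, centring, weights and models, a replicate block and leaving out each library.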

Additional observations from a re-analysis of the deposited data

How the results depend on the processing

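Values here are log2 changes unless another unit is given, and the cause of a change with a setting was not tested. Over all results and settings, direction and call held for 153 values with a library left out, while 22 turned, 17 lost a call, 6 gained one and 6 counts moved. Under other settings 139 held, 7 turned, 18 lost a call, 2 gained one and 2 counts moved. Values from exact permutation tests cannot pass the threshold in this design, so only their direction could change. A value that was not called in the main fit also counts as held if it stayed uncalled in the same direction. The numbers of values that held therefore do not measure how firm the calls are.

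In MEF cells the call of tRNA-Ala-AGC charging was lost with the library median subtracted (0.62), with a replicate block (1.98, limma adjusted p = 0.130), with both (0.62) and with quasi-binomial regression (1.08). The adjusted p ran from 0.00605 to 0.687 over its alternatives. With equal weights for genes, TGC (2.17) and combined alanine (1.89) passed the threshold. Under the block no isoacceptor was called, beside 9 without it, and the number of alanine genes called was 0, beside 1 with the median subtracted and 5 in the fit reported. By the labels, same-numbered libraries share only a number. The correlations given with the methods cannot register a shift common to a whole library, so they do not decide whether such a shift was shared. The block changed no other call in alanine.

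Calls of the share of tRNA reads were lost for AGC and TGC with library totals (0.87 and 0.92), median-of-ratios scaling (0.90 and 0.95), reads with either end (0.85 and 0.91) and no minimum (1.03 and 1.07), and for TGC with charged reads only (1.05). They were also lost with TMM factors from tRNA genes (0.97 and 1.02), a setting chosen after seeing the data. The number of isoacceptors called was 1 to 9 over these settings, beside 7. Reads with either end lost all 3 calls with the library median subtracted (1.12, 0.21 and 0.46).

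With a library left out, MEF charging ran from 1.24 to 2.67 for AGC, 0.92 to 1.81 for CGC, 0.86 to 2.51 for TGC and 1.03 to 2.43 for combined alanine. The share ran from 0.38 to 1.36 for AGC, -0.50 to 0.17 for CGC (0.17 without NT 3) and 0.34 to 1.44 for TGC, and reads with either end from 0.78 to 1.72 for CGC and 0.90 to 1.94 for TGC. The number of called genes ran from 0 to 13. The number of called isoacceptors ran from 0 to 22.

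In NTERT cells charging turned with quasi-binomial regression, to -0.36 for AGC, -0.26 for CGC, -0.24 for TGC and -0.32 for combined alanine. With a library left out it ran from -0.52 to 0.54 for AGC (-0.04 without NT 1), -0.36 to 0.47 for CGC (-0.10 without NT 2), -0.39 to 0.45 for TGC (-0.10 without NT 2) and -0.48 to 0.51 for combined alanine (-0.03 without NT 2). The share of TGC ran from -0.021 to 0.65, with the lowest without UV-B 1. The percentage of alanine reads changed by -0.16 to 3.84 points for AGC and by -0.46 to 0.87 for CGC (-0.03 without NT 3).

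The values that follow are changes with treatment in the difference between 2 isoacceptors, not the order of isoacceptors within libraries. In MEF cells the main values were -0.23 for TGC minus AGC, -0.53 for CGC minus AGC and 0.30 for TGC minus CGC. In NTERT cells they were -0.0011, 0.013 and -0.014. Several of these changes turned with a setting. TGC minus AGC turned with equal weights for genes to 0.30 in MEF and 0.11 in NTERT cells, and TGC minus CGC to 0.092 in NTERT cells. With a library left out, TGC minus CGC ran from -0.28 to 0.70 in MEF cells. In NTERT cells TGC minus AGC ran from -0.12 to 0.19 (0.13 without UV-B 1), CGC minus AGC from -0.11 to 0.17 (-0.01, -0.05 and -0.07 without NT 3, UV-B 2 and UV-B 3) and TGC minus CGC from -0.060 to 0.018 (0.0028 without UV-B 2). A negative binomial test of counts that had been planned was not run.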

Other observations

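Genes with few reads entered no test of charging by gene. Their reads stayed in the isoacceptor and combined values, except with equal weights for genes. The mouse gene Ala-AGC-8-1 had 38 reads with an end over the 6 MEF libraries and all of them ended in CC. Taken as 3 reads of 38, a count of 0 allows a charged share of up to 7.89%, and the exact 95% binomial interval reaches 9.25%. The human gene Ala-TGC-7-1 had 272 such reads, of which 10 were charged, or 3.68% with an exact 95% binomial interval of 1.78% to 6.66%. Both intervals cover counting error only. In single NTERT libraries its charging ran from 0% to 12%, under the lowest of the 25 tested alanine genes in 6 of 6 libraries. Human Ala-AGC-16-1 had 85 reads with an end, of which 44.7% were charged. Of the mouse CGC genes, Ala-CGC-3-1, whose share of the CGC reads was among the 9 tested, had 72 and Ala-CGC-4-1 had 45 reads with an end, Ala-CGC-6-1 and Ala-CGC-7-1 had 2 each, and Ala-CGC-5-1 had 21 reads, none with either end. The mouse TGC genes Ala-TGC-5-1, Ala-TGC-6-1 and Ala-TGC-8-1 had 90, 296 and 188 reads with an end, with 80.0%, 80.1% and 68.1% charged over the 6 libraries. These are all the alanine genes under the minimum of reads.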
